A study of Oryza sativa with 2 samples.

Results

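Calcineurin B-like calcium sensors (CBL), the kinases they bind (CBL-interacting protein kinases, CIPK) and calcium-dependent protein kinases (CDPK, named CPK in rice) were examined in rice (Oryza sativa) seedlings exposed to a carbon ion beam. A probe was a member if its gene, by symbol or synonym, carried a CBL, CIPK, CPK or CDPK number. The rule itself uses no measured value, but members were chosen with earlier results of these data known. It gave 40 genes of the 15798 measured by a probe with 1 gene, read by 46 of 17839 such probes. Of them 6 probes were for 6 CBL genes, 27 for 23 CIPK genes and 13 for 11 CDPK genes. The gene table holds 63 genes with such names, and the other 23 were not analysed here. Irradiated seedlings were grown for 7 days in MS medium, a plant culture medium, and exposed whole for 2 h 35 min to carbon ions from HIMAC, a heavy-ion accelerator. Control seedlings were healthy plants grown alike. The labels used here give no dose, cultivar, number of plants or time of harvest.

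On each of 2 two-colour arrays irradiated RNA was set against control RNA. Irradiated RNA carried Cy5 on the first array and Cy3 on the dye-swapped array. Both carry the same replicate number, so they were taken as the same pair of extracts. There was thus 1 replicate per group, no difference below has a replicate check, and no p-value is given. Values are log2 ratios of irradiated over control after removal of each array's intensity trend, given for the first and then the swapped array. Their sign is likely but not certain, because the sources used here do not name the numerator. It was taken as Cy5 over Cy3, and the opposite reading would turn every sign below. RNA came from whole seedlings, so fewer cells that use a gene and less RNA per cell cannot be told apart.

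CBL proteins are small EF-hand calcium sensors without enzyme activity. When calcium rises they bind the regulatory domain of a CIPK, which frees the kinase domain, and many bring it to the plasma membrane or the vacuole, where the pair acts on ion channels and transporters. CDPKs carry the calcium-binding and kinase domains in a single protein and need no separate sensor. In rice and Arabidopsis seedlings these kinases are known for potassium, sodium and nitrate transport and for responses to cold, drought, salt and pathogens.

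Brightness here is a spot intensity recovered from the deposited ratios, ranked over 22574 probes, with 100 the brightest percentile. The arrays, once turned to the same direction, correlated at r = -0.27 over all these probes and at r = 0.54 over the 4515 in the brightest 2 deciles, across probes, which are not independent replicates. All 6 photosynthesis probes lay between percentiles 85.5 and 99.9, and 11 of 34 root transport probes lay above percentile 80. Probe names rest on a numbering of the array grid recovered from the values: under it the brightness of 2 probes of a gene correlated at 0.22 over 1690 genes, against 0.015 with the numbers as listed.

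Most calcium sensor and kinase probes had a mean ratio close to the control level. The median of the 46 mean ratios was 0.012, against -0.010 over all probes with 1 gene. Of the 46, 36 had a mean within 1.5-fold of the control, or 78.3%, against 84.7% of all. A mean near 0 can also come from arrays that disagree. Opposite signs on the arrays were found in 21 of the 46, or 45.7%, against 53.2% of all, as for CIPK11 at -1.04 and 0.79. A CIPK23 probe was the highest member and a CIPK7 probe the lowest, and each of these genes has a brighter probe near 0. At least 2-fold on both arrays, 1 of 46 was higher, where 2.30% of all probes were, and 1 was lower, where 0.331% were. At 1.5-fold, 2 were higher (CIPK23 and CPK4), against 4.31% of all, and 2 were lower (CIPK7 and CIPK5), against 1.89%. By the mean of both arrays 2 passed 2-fold as higher, against 3.35% of all, and 2 as lower, the same genes as at 1.5-fold, against 1.09%, and at 3-fold on both arrays there were 0 and 0, against 0.970% and 0.0336%. Counts this small cannot be set apart from those shares.

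**Figure D1:**
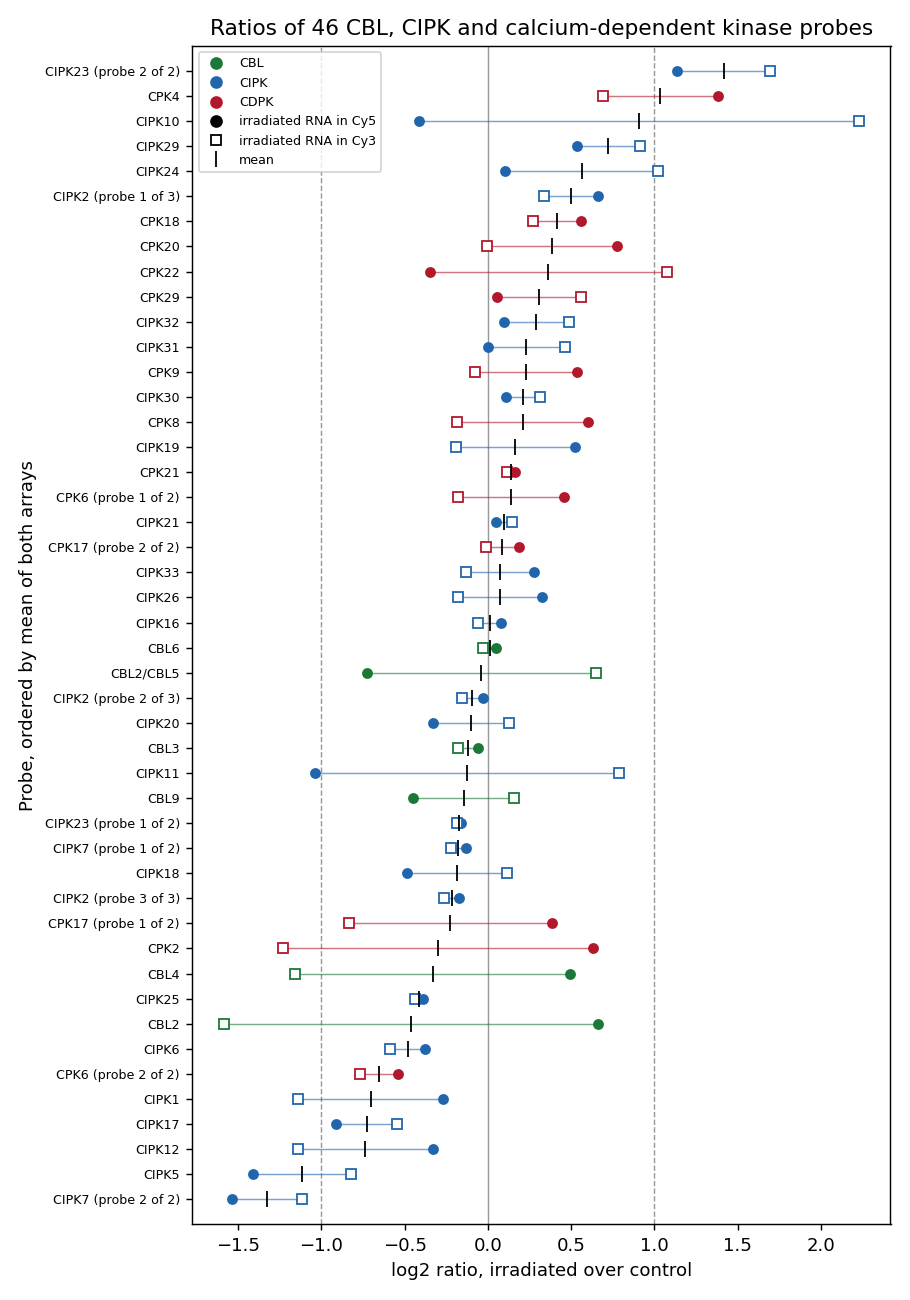
Log2 ratio of irradiated over control (x axis) for each of the 46 member probes (y axis, ordered by mean), with the first array as filled circles, the swapped array as open squares, the mean as a black bar and dashed lines at 2-fold. The dimmer CIPK23 probe lies past 2-fold higher on both arrays and the dimmer CIPK7 probe past 2-fold lower, while CIPK10, CBL2 and CIPK11 have widely parted values.

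Of the 46 probes 25 had the same sign on both arrays and 21 had opposite signs. Over all probes with 1 gene 46.8% had the same sign, against 54.3% of the members. The correlation between the arrays was 0.63 over the 23 members brighter than the median of all probes and -0.12 over the 23 dimmer ones, as a description across probes that share both arrays. Among all probes with 1 gene it was 0.46 and -0.39. Bright members thus repeated better from array to array than dim ones.

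**Figure D2:**
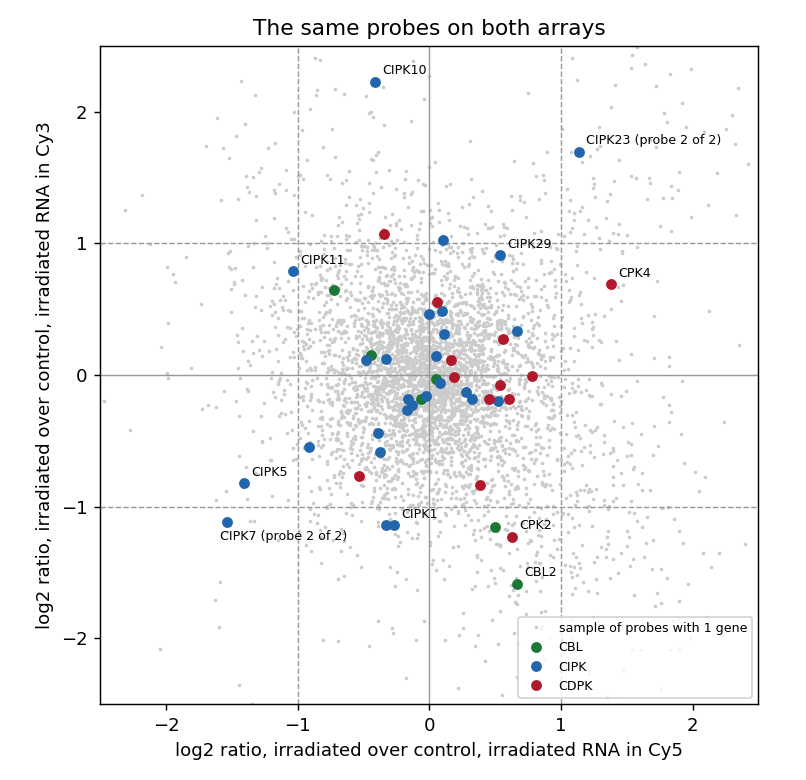
Log2 ratio on the first array (x axis) against that on the swapped array (y axis) for the 46 members, coloured by family, over a sample of the probes with 1 gene in grey, within 2.5 log2 units, with dashed lines at 2-fold. Only the dimmer probes of CIPK23 and CIPK7 lie in a corner past 2-fold on both arrays.

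The CBL sensors had the narrowest range of means among the 3 families, but also the fewest probes, and a range tends to widen with more probes. After loess the sensors parted most between arrays, over only 6 probes, but with median centring alone they did not. The distance of each array from the mean after loess had a median of 0.49, against 0.20 for CIPK and 0.32 for CDPK probes. The 6 sensor means ran from -0.46 to 0.012 with a median of -0.13. None reached 1.5-fold on both arrays, and 5 of the 6 had opposite signs on the arrays. CBL2 (LOC4352701), which in Arabidopsis has a namesake at the vacuole, was at 0.66 and -1.58, the widest gap among the sensors. CBL4, the sensor that in Arabidopsis pairs with CIPK24 in sodium export, was at 0.50 and -1.16 from a dim probe. After loess both were high on the first array and low on the swapped one, so their means of -0.46 and -0.33 rest on values that oppose each other. As deposited, irradiated RNA was the lower channel for CBL4 on both arrays. With median centring alone CBL4 was at -0.66 and 0.093, the opposite sign on each array, and CBL2 was at 0.057 and -0.90. LOC4325962, for which the table lists both CBL2 and CBL5, was at -0.73 and 0.65 at percentile 8.97, and CBL9 was at -0.45 and 0.16. The sensors with close values after loess were CBL3 at -0.060 and -0.18 and CBL6 at 0.051 and -0.027. With median centring alone CBL3 was at 0.24 and -0.094, but CBL6 parted to 0.59 and -0.99. CBL6 was the brightest of the 6, at percentile 80.4, but its mean was 0.31 when intensities were used without the common factors put back.

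CIPK23 (LOC4342410) is the kinase that, with a CBL sensor, activates the potassium channel AKT1 in roots. Its dimmer probe, at percentile 72.8, was at 1.13 with irradiated RNA in Cy5 and at 1.70 with it in Cy3, which average to 1.42 or 2.67-fold. The deposited log10 ratios of Cy5 over Cy3 were 0.566 and -0.134. In whole-number terms the first array read 733 in Cy5, which held irradiated RNA, against 199 in Cy3, and the swapped array read 335 in Cy5 against 456 in Cy3, now irradiated. The irradiated channel was thus the higher one on both arrays before any normalization. With each array only centred on its median the same probe was at 1.71 and 1.12, so both ways of centring gave the same call.

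The brighter CIPK23 probe, at percentile 86.6, gave -0.16 and -0.18. Its terms were 953 in Cy5 against 516 in Cy3 on the first array and 1428 against 403 on the swapped array, so Cy5 was the higher channel on both, whichever RNA it held. The probes of CIPK23 therefore differed by 1.59 log2 units in their means. Over 1859 genes with more than 1 probe the range between probes of a gene had a median of 0.34 and a 90th percentile of 0.96. CIPK23 as a gene thus has no single value here: 1 probe read it as higher and the brighter one as slightly lower.

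CIPK7 (LOC4333514), a kinase linked to chilling tolerance in rice, showed the mirror image. Its dimmer probe, at percentile 75.5, was at -1.54 and -1.12, which average to -1.33 or 2.51-fold lower. The first array read 233 for irradiated RNA in Cy5 against 437 for control in Cy3, and the swapped array read 230 for irradiated RNA in Cy3 against 1413 for control in Cy5. Irradiated RNA was lower on both arrays as deposited, and with median centring alone the probe was at -1.08 and -1.95. Yet its other probe, at percentile 98.8 the brightest of all members, gave -0.13 and -0.22, from terms of 3548 in Cy5 against 1503 in Cy3 and of 14183 against 2848. Both CIPK7 probes were below 0, but they differed by 1.15, more than the 90th percentile of the range for genes with more than 1 probe.

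**Figure D3:**
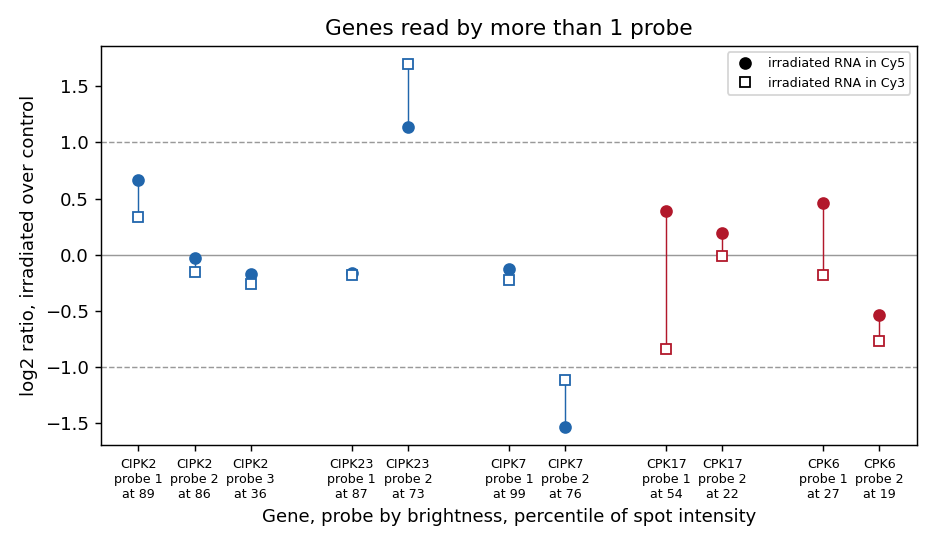
Log2 ratio of irradiated over control (y axis) for each probe of the 5 member genes with more than 1 probe (x axis, with the percentile of spot intensity), as filled circles for the first array and open squares for the swapped array. The brighter probes of CIPK23 and CIPK7 lie near 0 on both arrays while the dimmer ones lie past 2-fold in opposite directions.

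CIPK2 (LOC4344287) has 3 probes. The brightest, at percentile 89.2, was at 0.66 and 0.34, the next, at percentile 85.7, at -0.028 and -0.16, and the dimmest at -0.17 and -0.26. The brightest and the next probe thus differed by 0.59 in their means (0.50 and -0.093) although both lie in the same decile of brightness. CIPK29, the next protein-coding gene beside CIPK2 in the gene table, was at 0.54 and 0.91, a mean of 0.72, from a probe at percentile 88.8. CIPK29 was the highest member among the 8 probes of the brightest 2 deciles. With median centring it was at 1.42 and -0.17, and the brightest CIPK2 probe at 1.56 and -0.75, so both swapped values changed sign. The other pair of adjacent members, CIPK30 and CIPK12, had opposite signs after loess. CIPK30 was at 0.11 and 0.31, and CIPK12, whose overexpression is known to raise drought tolerance in rice, at -0.33 and -1.14. With median centring CIPK30 was at -0.80 and 0.98 and CIPK12 at -1.44 and 0.074. On each array the 2 genes then had the same sign, though their means of 0.093 and -0.69 still had opposite signs.

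CIPK5 (LOC4327093) was the other CIPK past 1.5-fold on both arrays, at -1.41 and -0.82, a mean of -1.11 or 2.17-fold lower, from a single probe at percentile 37.0. As deposited, irradiated RNA was the lower channel on both arrays, at 13 against 53 in lowest terms on the first array and at 117 against 257 on the swapped array. With median centring it was at -2.20 and -0.46, so its direction held and its second value no longer reached 1.5-fold. CIPK17 followed at -0.91 and -0.54, also as the lower channel on both arrays, with a mean of -0.73. With median centring it was at -1.24 and 0.38, so the swapped value changed sign, and the mean was -0.43.

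CIPK1 was the lowest member of the brightest 2 deciles, at -0.27 and -1.14 from a probe at percentile 95.7. Its terms were 2171 in Cy5 against 1113 in Cy3 on the first array and 6503 against 755 on the swapped array, so its mean of -0.70 comes from a larger Cy5 excess on the array where Cy5 held control RNA. CIPK25, at percentile 92.4, was at -0.39 and -0.44, but its mean of -0.41 became -0.018 without common factors put back. CIPK6 was at -0.38 and -0.59. After loess these 3 kinases were lower on both arrays, and none passed 1.5-fold on both. With median centring CIPK6 was at -0.12 and -0.70, but CIPK1 was at 0.79 and -2.43 and CIPK25 at 0.56 and -1.66, both higher on the first array and lower on the swapped one.

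CIPK10 had the largest single value of any member and the least agreement between arrays, at -0.41 with irradiated RNA in Cy5 and 2.23 with it in Cy3. On the swapped array its ratio was 2 to 13 in lowest terms, so its true intensity there is poorly known. Its mean of 0.91 therefore rests on the swapped array. CIPK24, the rice counterpart of the Arabidopsis kinase SOS2 that acts in sodium export, was at 0.11 and 1.03, and its mean of 0.57 likewise came mainly from the swapped array. CIPK11 was at -1.04 and 0.79, which cancel to -0.12. The remaining 9 CIPK genes had means from -0.18 for CIPK18 to 0.29 for CIPK32. Among them was CIPK31, a kinase of stress responses in germinating rice, at 0.00070 and 0.46.

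Within the CIPK family 19 of the 27 CIPK probes had the same sign on both arrays. Their median was -0.093, with 13 means above 0 and 14 below, and the median on each array alone was -0.13. The CIPK means ran from -1.33 to 1.42, a wider range than that of the sensors but over more probes.

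Means of the CDPK probes were mostly above 0, in 10 of 13, with a median of 0.21, where 48.8% of all probes with 1 gene had a mean above 0. After loess that shift lay on the first array, where the CDPK median was 0.46, while with the dyes swapped it was -0.014. With median centring alone it lay on the swapped array instead. There the middle CDPK probe was the dimmer CPK17 probe at 0.68, while on the first array it was CPK21 at 0.091. Which array carried the shift thus depended on the normalization. Of the 13 probes 9 were dimmer than the median of all probes and none in the brightest 2 deciles, and 8 had opposite signs on the arrays. Their part in this difference between arrays was not tested.

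CPK4 (LOC4328155), a kinase whose overexpression is known to raise salt and drought tolerance in rice, was the highest CDPK at 1.38 and 0.69, a mean of 1.04 or 2.05-fold, from its only probe at percentile 47.3. The irradiated channel was the higher one on both arrays as deposited, at 330 against 113 on the first array and 10 against 7 in lowest terms on the swapped array. With median centring it was at 1.38 and 1.19, past 2-fold on both, which made 2 of 46 members higher, where 1.33% of all probes were higher by that measure. The intensity trend taken off the swapped array at this spot rests on a ratio that had lost its common factor. Without common factors put back the mean of CPK4 was 0.82, short of 2-fold. CPK18, which in rice phosphorylates the MAP kinase MPK5, was next at 0.56 and 0.27 from a probe at percentile 60.3, a mean of 0.41. With median centring CPK18 was at 0.60 and -0.13, so the swapped value changed sign and the mean was 0.23.

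The other CDPK genes parted more between arrays. CPK20 was at 0.78 and -0.0038, CPK22 at -0.35 and 1.07, and CPK2 at 0.63 and -1.23. CPK9, CPK8 and CPK21 had means of 0.23, 0.21 and 0.14, of which CPK21, a kinase of abscisic acid and salt responses, had the closest values at 0.16 and 0.12. CPK29, the dimmest of all members at percentile 1.06, was at 0.056 and 0.56. Probes of the same gene again differed: the brighter CPK6 probe was at 0.46 and -0.18 and the dimmer at -0.54 and -0.77, both below percentile 28. The dimmer CPK6 probe was the lowest CDPK, with a mean of -0.65. The CPK17 probes were at 0.39 and -0.84 and at 0.19 and -0.014, with means 0.31 apart.

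Read before any normalization, 4 members had the irradiated channel higher on both arrays, the dimmer CIPK23 probe, CPK4, CPK20 and CPK21, or 8.70%, against 4.33% of all probes with 1 gene. In 10 it was lower on both, or 21.7%, against 16.3% of all: the dimmer CIPK7 probe, CIPK5, CIPK12, CIPK17, CIPK18, CIPK26, the dimmest CIPK2 probe, the dimmer CPK6 probe, CPK2 and CBL4. The deposited columns have medians of 0.051 and 0.20 log10 units. Over all probes with 1 gene the balance varied with brightness. Among those dimmer than the median of all probes 4.95% were higher on both arrays and 25.4% lower, and in the brightest 2 deciles 3.33% and 1.11%. The reason was not tested. The remaining 32 members followed the dye, with the same channel higher on both arrays whichever RNA it held.

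**Figure D4:**
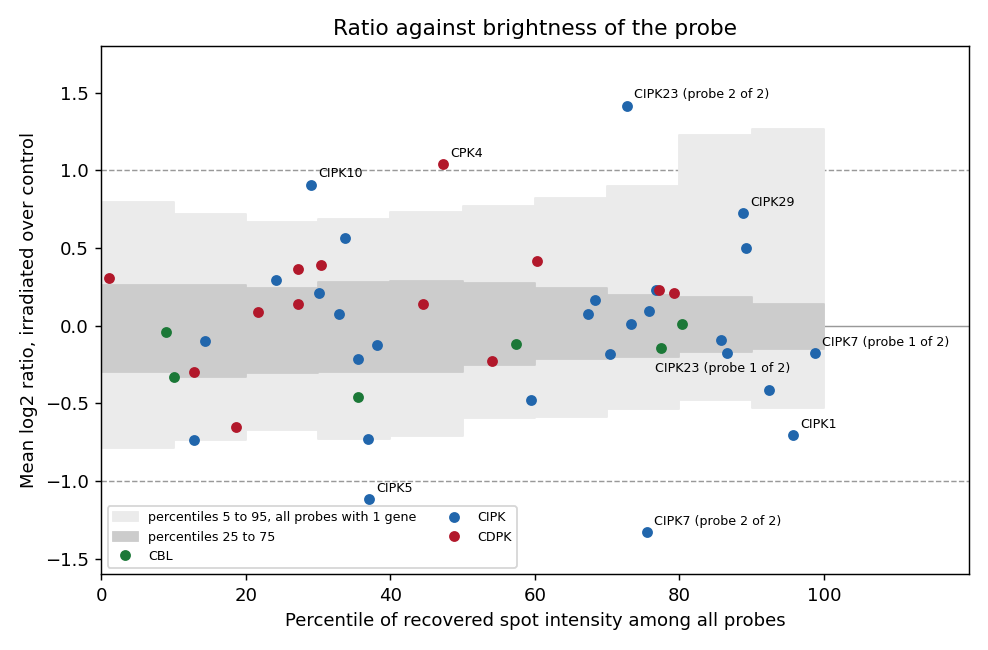
Mean log2 ratio of irradiated over control (y axis) against the percentile of spot intensity (x axis) for the 46 members, coloured by family, over bands that span percentiles 5 to 95 and 25 to 75 of all probes with 1 gene in each decile of brightness. The members above the wide band are the dimmer CIPK23 probe, CPK4 and CIPK10, and those below it are the dimmer CIPK7 probe, CIPK5, CIPK12 and CIPK1.

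Set against probes of like brightness, 3 members lay above the 95th percentile of their decile and 4 below the 5th, and by construction 10% of all probes lie outside these limits. The dimmer CIPK23 probe at 1.42 stood against a 95th percentile of 0.90, and the dimmer CIPK7 probe at -1.33 against a 5th percentile of -0.54. All 7 were CIPK or CDPK probes, as most members are, and the 6 sensors lay inside. With so few probes, neither the 7 members outside nor the lack of sensors among them can be set apart from that 10%. The 6 sensors are thus not shown to differ from the kinases by this measure.

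Other parts of calcium and stress signalling were described in the same way. The lists were chosen with earlier results of these data known, so their high members are no independent contrast with the kinases. Among 23 calmodulin and calmodulin-like probes, EF-hand sensors of another family, 3 passed 2-fold as higher on both arrays and 0 as lower. Over all probes with 1 gene 2.30% were higher and 0.331% lower. The higher calmodulin-like probes were CML31 at 3.67 and 3.61, CML16 at 1.47 and 1.36 and CML18 at 1.05 and 1.01. The lowest was CML11 at -0.43 and -0.30. The median of that list was -0.042. With median centring in place of loess CML31 was at 4.36 and 2.55, while CML16 was at 2.39 and 0.27 and CML18 at 2.08 and -0.31, so CML31 alone of the 3 still passed on both arrays.

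Of 15 MAP kinase probes 2 passed 2-fold as higher and 0 as lower, against 2.30% and 0.331% of all probes with 1 gene. The list median was 0.082. MAPK5, the rice kinase also named MPK5 that CPK18 acts on, was at 3.85 and 4.13, and MAPKK1 at 1.36 and 1.18. With median centring MAPK5 was at 4.88 and 2.77, and MAPKK1, at 2.42 and 0.077, passed on the first array only. The lowest was a probe of LOC4339633, listed as MAPK6 and MPK7, at 0.24 and -1.47. The list took in LOC4343678 through the synonym MEK1, a gene also named WNK1, at -0.43 and 0.59. Set beside MAPK5, CPK18 at 0.56 and 0.27 was close to the control.

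SnRK1 and SnRK2 kinases belong to the same superfamily as CIPKs, which are also called SnRK3. Of their 15 probes 0 were 2-fold higher and 0 lower on both arrays, against 2.30% and 0.331% of all, with a median of -0.17. The highest was SAPK6, a SnRK2 kinase, at 0.82 and 1.06, and the lowest SAPK10 at -0.30 and -0.83. Type 2C phosphatases, some of which bind CIPKs or SnRK2 kinases, held 1 of 51 probes higher, OsPP2C27 at 1.29 and 1.90, and 0 lower. Counts this small in both lists cannot be set apart from those shares of all probes. With median centring OsPP2C27 was at 2.18 and 0.89, short of 2-fold on the swapped array. The median of the list was 0.15, and the lowest was a probe of OsPP2C75 at percentile 20.4 of intensity, at -1.20 and -0.92. The other, brighter OsPP2C75 probe, at percentile 46.3, was at 0.27 and 0.26.

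Channels, transporters and oxidases of the kinds these kinases act on, with calcium transporters, came to 50 probes for 43 genes. Those past 2-fold were 2 higher probes, the potassium transporters HAK1 at 2.01 and 2.21 and HAK27 at 1.25 and 1.46, and 0 were lower. Over all probes with 1 gene 2.30% were higher and 0.331% lower, and counts this small cannot be set apart from those shares. With median centring HAK1 was at 2.68 and 1.66, and HAK27, at 1.75 and 0.91, fell short of 2-fold on the swapped array. The lowest was HAK6, a dim probe at -1.81 and 0.052, and the list median was 0.095. HAK1 and the dimmer CIPK23 probe were both higher on each array, while the brighter CIPK23 probe was not.

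**Figure D5:**
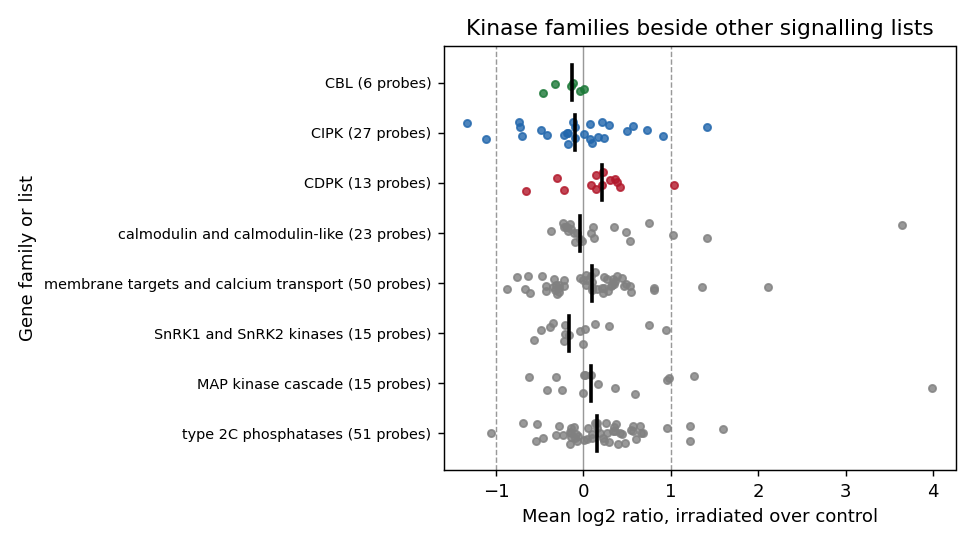
Mean log2 ratio of irradiated over control (x axis) for each probe of the CBL, CIPK and CDPK families and of 5 other signalling lists (y axis), with black bars at the medians and dashed lines at 2-fold; vertical scatter within a line has no meaning. The kinase and sensor families reach at most 1.42, while CML31 lies at 3.64 and MAPK5 at 3.99. The 5 lists were chosen with earlier results of these data known.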

How the data were processed

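A GenePix scanner read the Agilent rice arrays, and GeneSpring is named for normalization, per the series' design text. The authors deposited a log10 ratio between channels for each of 22575 probes, 1 of which lacks a value on an array. Per the values themselves, they are not centred. No source used here names the background handling or the genome build, so no positions are printed. Each deposited ratio was written as its simplest fraction within 9 decimals. Where an array's terms had lost a common factor, the most likely one up to 59 was put back using the other array (assumed spread 0.2 log10 units), which gives a coarse intensity. Ratios were normalized by loess on intensity (statsmodels 0.14.6, span 0.3, 3 robustness iterations) and taken to log2, and the swapped array was negated. The steps were tested on simulated data, with changes placed only in probes brighter than the median and no dye effect of single probes. That test therefore does not cover changes in dim probes or probes that follow the dye.

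Names came from the platform annotation through the RefSeq gene table of assembly ASM3414082v1, which matched all 17839 probes with 1 gene. 21 probes have several genes and 4715 are unlisted. Members and lists were chosen with earlier results of these data known. Probes named with values are those past 1.5-fold on both arrays, all probes of genes with more than 1 probe, the 5 highest and 5 lowest, those in the brightest 2 deciles and the extremes of each family, and other members are given to account for all. Precision is limited by the number of arrays, 2.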

Additional observations from a re-analysis of the deposited data

How the results depend on the processing

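With 1 replicate per group none of these values has a test. The counts of 1 higher and 1 lower member, past 2-fold on both arrays, stayed at 1 and 1 with loess on reduced terms, with a wider span and among probes brighter than the median. With median centring, scaled or not, 2 were higher and 1 lower, and the mean of both arrays or 1.5-fold gave 2 and 2. The first array alone gave 2 higher and 3 lower, where 8.62% and 4.47% of all probes were, and the swapped array alone 4 and 6, where 6.97% and 7.63% were. At 3-fold, in the brightest 2 deciles, with 1 value per gene from its brightest probe or from the mean of its probes, and with no array turned, the counts were 0 and 0. With probe numbers as listed they were 1 and 0. Matching by symbol alone left no member. The median of 0.012 was -0.13 over the 8 members of the brightest 2 deciles and lay between -0.067 and 0.053 under the other alternatives. Read as Cy3 over Cy5, the dimmer CIPK23 probe had a mean of -1.42, CPK4 one of -1.04, the dimmer CIPK7 probe 1.33 and CIPK5 1.11. With no array turned the dimmer CIPK23 probe was at -0.28. The causes were not tested. Among dim probes the coarse intensity limits what the loess values can show. No paired analysis was possible because the arrays hold 1 pair of extracts.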
